A study of Mus musculus with 4 samples.

Results

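Cluster 12 was a set of 76 cells among the 32439 single cells of a mouse mammary luminal sort, and it held fibroblast-like and endothelial-like cells side by side. Its members were the cells to which the deposited table gives the cluster number 12 and the cell type Rare. Clusters 1 to 11 of the same table were luminal epithelial cells and cluster 13 was the other rare cluster. Each cell was described by lists of marker genes, which hold the 4 genes that mark the cluster. Those genes also took part in the clustering, so this is no independent check of the label. Of the 76 cells, 55 carried endothelial genes, 17 carried fibroblast genes, 4 could not be assigned, and no cell carried 3 or more genes of both lists.

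The study asked how an Erbb3 allele that cannot act as the activator of its receptor partners changes luminal cells. Thoracic and abdominal glands of C57BL/6N mice aged 6 weeks were pooled, 3 mice per genotype, enriched for epithelium, sorted for luminal cells and run as droplet libraries. The genotypes were ErbB3+/+;MMTV-Cre (WT) and ErbB3V943R/V943R;MMTV-Cre (V943R), so both carried the Cre transgene. Each genotype was 1 pool sequenced as 2 libraries, called A and B here because the table gives no replicate number for them. The MMTV promoter drives Cre mainly in mammary epithelium, and the V943R allele is switched on by Cre. Vessel cells and fibroblasts lie outside the tissue at which that driver is aimed, and whether the allele was recombined in them was not tested. With 1 pool per genotype no p-value is given, and the 95% intervals below cover counting error only.

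Fibroblasts of the mammary gland build the fibrous matrix around ducts. They secrete the chains of type I and type III collagen, the small proteoglycans that coat the fibrils, and the enzymes that cut and cross-link them. Endothelial cells line blood and lymphatic vessels and seal themselves to each other with claudin 5 and VE-cadherin. Lymphatic endothelium differs from blood endothelium in its dependence on the transcription factor PROX1.

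The deposited value of each gene in each cell was turned back into a number of unique molecular identifiers (UMIs), that is, of captured RNA molecules. Cluster 12 held 182032 UMIs, with a median of 1766.5 UMIs and 1063 genes per cell, and at least 1008 UMIs in every cell. Clusters 1 to 11 had a median of 3572 UMIs per cell and cluster 13 of 1869. Levels are given as counts per 1000000 UMIs of the same cells (CPM), and shares of cells with a UMI are also given after cells were thinned to 1000 UMIs, which left out 293 cells of clusters 1 to 11 and 4 of cluster 13 that had fewer. Across the 4 libraries 511 cell barcodes occurred in more than 1 library, and 4 cells of cluster 12 had a barcode that another library also held. The sources used here do not say that doublets were removed and no doublet caller was run, so cells with genes of more than 1 list were counted instead.

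The 4 genes that mark the cluster are Igfbp6, a binding protein for insulin-like growth factors, Col3a1 and Col1a2, chains of type III and type I collagen, and Cldn5, claudin 5 of endothelial tight junctions. In GRCm38 they lie at chr15:102144362-102149511, chr1:45311538-45349706, chr6:4504814-4541544 and chr16:18776847-18778262, all on the plus strand. Their promoters are shown because these genes split the cluster into its fibroblast and endothelial cells, and the promoter of Prox1 (chr1:190118035-190170714, minus strand) is shown because this lymphatic gene was found in part of the endothelial-like cells. Each RefSeq window (GRCm38.p6) runs 250 bases before to 50 bases after the annotated start. For Igfbp6, Col1a2 and Prox1 this RefSeq start differs from the start of the gene given above, which comes from GENCODE. Prox1 had 2 RefSeq promoters, and the first is shown. The windows are chr15:102143936-102144235, chr1:45311288-45311587, chr6:4505368-4505667 and chr16:18776597-18776896 on the plus strand, and chr1:190170778-190171077 on the minus strand. Capitals mark the letters CCAAT on either strand, which read ATTGG on the other.
Igfbp6: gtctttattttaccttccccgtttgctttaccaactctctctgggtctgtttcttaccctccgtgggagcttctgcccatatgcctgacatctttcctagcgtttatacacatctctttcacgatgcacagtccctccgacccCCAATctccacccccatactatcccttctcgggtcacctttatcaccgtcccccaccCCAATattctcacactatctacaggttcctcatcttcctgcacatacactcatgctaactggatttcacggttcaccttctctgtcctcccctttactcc
Col3a1: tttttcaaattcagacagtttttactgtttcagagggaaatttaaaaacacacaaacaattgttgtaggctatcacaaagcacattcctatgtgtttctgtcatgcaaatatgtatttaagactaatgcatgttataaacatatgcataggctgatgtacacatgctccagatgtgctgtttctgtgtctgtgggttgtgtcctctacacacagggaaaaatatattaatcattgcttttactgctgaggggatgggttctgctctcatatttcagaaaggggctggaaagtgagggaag
Col1a2: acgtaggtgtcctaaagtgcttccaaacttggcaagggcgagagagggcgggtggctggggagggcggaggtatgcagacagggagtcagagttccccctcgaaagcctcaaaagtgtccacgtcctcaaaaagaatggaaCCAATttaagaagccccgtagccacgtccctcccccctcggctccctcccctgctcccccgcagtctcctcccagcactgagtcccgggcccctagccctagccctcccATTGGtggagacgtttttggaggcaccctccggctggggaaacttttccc
Cldn5: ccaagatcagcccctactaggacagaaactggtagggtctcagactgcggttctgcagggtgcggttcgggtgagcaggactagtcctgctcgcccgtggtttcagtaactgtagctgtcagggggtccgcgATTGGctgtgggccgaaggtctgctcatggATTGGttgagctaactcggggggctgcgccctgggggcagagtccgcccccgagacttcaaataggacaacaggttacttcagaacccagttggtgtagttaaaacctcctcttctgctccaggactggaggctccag
Prox1: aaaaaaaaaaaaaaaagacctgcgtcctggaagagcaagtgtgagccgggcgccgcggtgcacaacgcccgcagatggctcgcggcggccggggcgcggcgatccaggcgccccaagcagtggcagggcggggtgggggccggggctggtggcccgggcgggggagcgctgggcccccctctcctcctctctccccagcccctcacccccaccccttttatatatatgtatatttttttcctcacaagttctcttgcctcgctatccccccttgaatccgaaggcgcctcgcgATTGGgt
CCAAT stood 2 times in the windows of Igfbp6, Col1a2 and Cldn5, 1 time in that of Prox1, and nowhere in that of Col3a1. It was present in 37.4% of all 32851 promoters of the table, in 3 of the 8 promoters found for the fibroblast list, and in 1 of the 9 found for the endothelial and 2 of the 8 found for the lymphatic list. AGGAAG, 1 form of ETS-type site, was searched on both strands as well, and other forms were not counted. It stood in 5 of 9 endothelial, 1 of 8 fibroblast and 1 of 8 lymphatic list promoters, against 35.4% of all promoters. GGGCGG, the GC box, stood in 4, 2 and 6 of them (35.7% of all promoters), and AACAAT, a core of SOX sites, in 2, 2 and 1 (10.7%). These matches describe the letters of the windows and nothing was measured at them.

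Cluster 12 was 0.197% of the cells of WT A, 0.266% of WT B, 0.234% of V943R A and 0.245% of V943R B, from 19, 24, 16 and 17 cells. The libraries of the genotypes overlapped. The ratio of the shares, V943R over WT, was 1.04 (95% interval 0.659 to 1.63), an interval that holds both a fall and a rise by over 1.5 times. These are shares of sorted cells. The study refers for its sort to the gating of its flow cytometry, whose antibodies included CD31 (the product of Pecam1), CD45 (Ptprc), Ter119 and EpCAM, so the shares describe what passed a luminal gate and not the stroma of the gland.

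Cell by cell, the marker genes did not mix. Cldn5 was found in 54 cells, Igfbp6 in 17, Col3a1 in 18 and Col1a2 in 16. Igfbp6 and Col3a1 shared 16 cells, and Col3a1 was present in all 16 cells with Col1a2. No cell held Cldn5 together with any of the other 3, and 3 cells held none of the 4 genes.

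Each cell was then compared with 7 lists of 12 genes, for fibroblasts, endothelium, mural cells, glia, basal epithelium, immune cells and adipocytes. A cell was given the list with the most genes found if these were 3 or more and 2 or more above the next list. The 55 endothelial-like cells made up 72.4% of the cluster (60.9% to 82.0%), and the 17 fibroblast-like cells 22.4% (13.6% to 33.4%). Endothelial-like cells numbered 12 in WT A, 17 in WT B, 14 in V943R A and 12 in V943R B, and fibroblast-like cells 6, 4, 2 and 5. Both kinds were present in all 4 libraries. As a share of all cells, the ratio of V943R over WT was 1.21 (0.713 to 2.05) for endothelial-like and 0.945 (0.360 to 2.48) for fibroblast-like cells.

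The 2 kinds of cell differed in how much of their list they showed. An endothelial-like cell had 3 to 8 of the 12 endothelial genes (median 5) and 4 to 31 UMIs of them (median 15). A fibroblast-like cell had 7 to 12 fibroblast genes (median 10) and 28 to 277 UMIs (median 122). Fibroblast-like cells were also deeper, with a median of 2716 UMIs against 1612. Of the endothelial-like cells, 51 of 55 had no UMI of any fibroblast gene, and 11 of the 17 fibroblast-like cells had none of any endothelial gene. Of the assigned cells, 2 endothelial-like cells had just 3 genes of their list, and 1 cell was decided by a margin of just 2.

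**Figure D1:**
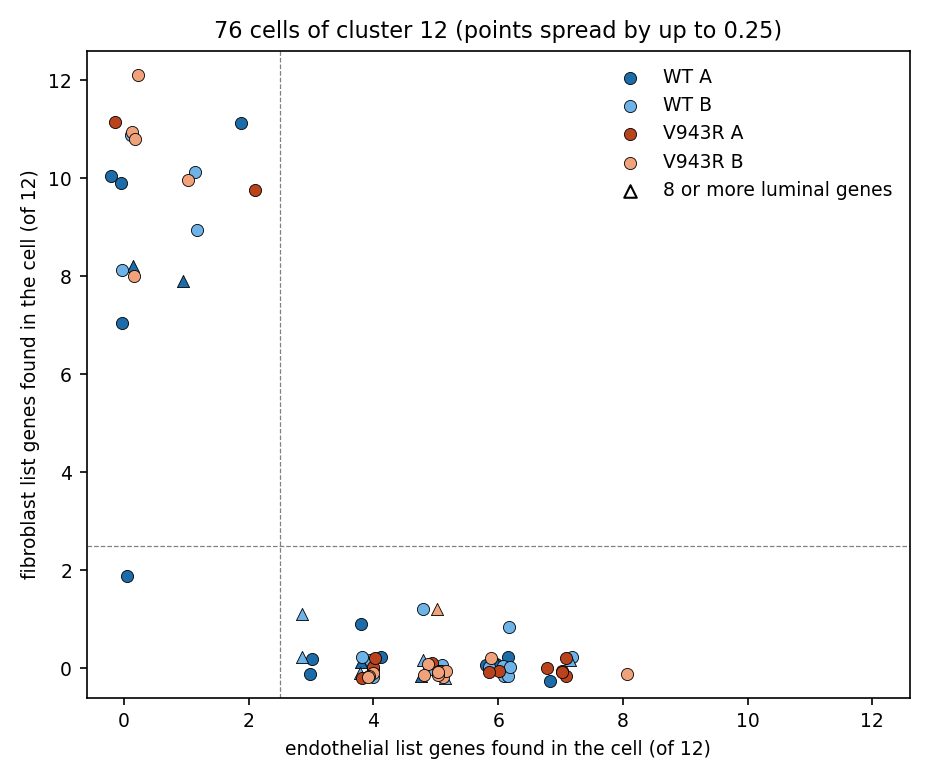
Genes found per cell in cluster 12, with the number of the 12 endothelial list genes on the horizontal axis and of the 12 fibroblast list genes on the vertical axis, 1 symbol per cell moved by up to 0.25 for visibility, and dashed lines between 2 and 3 genes. The 55 endothelial-like cells lie along the horizontal axis and the 17 fibroblast-like cells along the vertical one, no cell has 3 or more genes of both, and triangles mark the 14 cells with 8 or more luminal genes.

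The other 5 lists decided no cell, and no gene of the glial, basal and immune lists had enough UMIs for the comparison with luminal cells made further on. Rgs5, Cspg4, Des and Higd1b of pericytes, Ptprc, Cd3e and Lyz2 of immune cells, and Adipoq of adipocytes had no UMI in the cluster, where 0 UMIs allow a level of up to 16.5 CPM. The other 8 genes of the mural list were found, with 101 UMIs, or 554.8 CPM against 97.3 CPM in luminal cells. At least 1 of them was found in 13 of the 55 endothelial-like cells, which held 25 of these UMIs. The 1 mural gene with enough UMIs for that comparison was higher in cluster 12, against 12.5% of all genes tested. The 4 unassigned cells were 1 cell of WT A with 2 fibroblast genes and 3 cells of WT B. Those 3 WT B cells had 5, 3 and 3 endothelial genes and as many basal ones, with 10 luminal genes each. Together the 4 cells held 35 of the 36 UMIs of Acta2 in the cluster, a smooth muscle actin that basal cells also make, 15 of the 16 of Krt14 and all 7 of Krt17, both basal keratins. Tagln, another contractile gene, had 35 of its 47 UMIs there and 12 in endothelial-like cells.

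The same rule found very few such cells among the luminal clusters. In clusters 1 to 11, 17 of 32199 cells counted as endothelial (0.0528%, 0.0308% to 0.0845%) and 2 as fibroblast (0.00621%). Those 17 cells had a median of 7841 UMIs and 5 UMIs of the endothelial list. Of them, 16 had Egfl7, 13 had Ecscr and 8 had Cldn5. None of the 164 cells of cluster 13 counted as either, and 115 of them counted as immune.

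Against clusters 1 to 11, a gene was counted as higher in cluster 12 at 4-fold or more with 20 or more UMIs found in 5 or more cells. Of 2071 genes with enough UMIs for a call, 259 were higher (12.5%) and 56 were lower (2.7%). The cluster was built from these genes, so the counts are descriptions. Genes scarce in luminal cells could enter only with 20 or more UMIs in cluster 12, which by itself put them above 4-fold. This fixed in advance that all tested genes of the endothelial, lymphatic, capillary and proteoglycan lists were higher. Those lists stood at 53.9, 2.56, 4.78 and 11.6 CPM in clusters 1 to 11. The 12.5% of all genes is the background for each list count below. The median log2 ratio over the 2071 genes was -0.11. Over all 12 genes of a list it was 11.90 for the fibroblast, 9.97 for the endothelial and -1.71 for the luminal list (a gene with 0 UMIs on one side was set at the 3 counts that 0 allows). With genes under 3 UMIs in clusters 1 to 11 set at 3 counts for the ranking, the 10 highest ratios belonged to Col1a2, Col3a1, Lum, S1pr1, Fbn1, Igfbp6, Islr, Clec1a, Gdf10 and Sod3. Col1a2 stood at a log2 ratio of 13.55 (12.93 to 14.24), Col3a1 at 13.37 (12.83 to 13.97), Igfbp6 at 12.88 (12.44 to 13.35) and Cldn5 at 12.19 (11.80 to 12.60). These ratios rested on 22, 29, 46 and 63 UMIs in the luminal clusters. S1pr1, the sphingosine 1-phosphate receptor of endothelium, had 35 UMIs in cluster 12 and 1 UMI in clusters 1 to 11, which gave 14.66 (12.09 to 20.01) with the count as found. Islr, a secreted immunoglobulin-repeat protein of mesenchymal cells, had 29 UMIs and 1 UMI.

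Collagen genes were found in the fibroblast-like cells. Col1a1, the other chain of type I collagen, was found in all 17 of them with 388 UMIs and in none of the endothelial-like cells, where 0 UMIs allow 24.4 CPM. Its level by library was 5354 CPM in WT A, 8769 in WT B, 8612 in V943R A and 9961 in V943R B, so WT A was the lowest and the genotypes overlapped. Col3a1 stood at 5488, 7625, 10574 and 11125 CPM. For Col3a1 both V943R libraries were above both WT libraries, from 2 and 5 cells, and the log2 ratio within fibroblast-like cells was 0.78 (0.48 to 1.07). The 2 fibroblast-like cells with 8 or more luminal genes were both in WT A. Without them WT A stood at 8698 CPM, still below both V943R libraries, and the log2 ratio was 0.43 (0.13 to 0.74). Col1a2 stood at 4149, 9626, 7522 and 9016 CPM, with the genotypes overlapping. Without the same 2 cells WT A stood at 8698 CPM for Col1a1, no longer the lowest library, and at 6651 CPM for Col1a2. The log2 ratios were 0.11 (-0.19 to 0.41) for Col1a1 and 0.01 (-0.30 to 0.33) for Col1a2. Over the 4 libraries the level of Col3a1 in fibroblast-like cells was 8519 CPM (7716 to 9383) against 0.215 CPM in clusters 1 to 11.

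The share of cells with a collagen UMI was just as uneven. Col3a1 was found in all 17 fibroblast-like cells (94.1% after thinning), in none of the 55 endothelial-like cells (up to 5.45%) and in 0.0745% of the cells of clusters 1 to 11 (0.0251% after thinning). A fibroblast-like cell had up to 66 UMIs of Col3a1, with a median of 21. The fibrillar list has 12 collagens. Of its 7 with enough UMIs, 6 were higher than in luminal cells, against 12.5% of all genes tested. Col6a1 (50 UMIs) and Col6a2 (40 UMIs), chains of the beaded type VI collagen, were among them. Col6a3 was the exception at a log2 ratio of 0.19, since its level in luminal cells was 149.7 CPM.

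Proteins that bind and organise collagen fibrils were found mostly in fibroblast-like cells. Dcn and Lum, like Col1a1, Col1a2, Col3a1 and Igfbp6, belong to the list by which cells were assigned, so their split between the kinds of cell is partly fixed by the rule, as is that of Cldn5, Egfl7, Ecscr and the other genes of the endothelial list. All 9 genes with enough UMIs in the list of proteoglycans and elastic fibres were higher in cluster 12 than in luminal cells. The rule fixed this for genes so scarce in luminal cells, and 12.5% of all genes tested were higher. Dcn, the proteoglycan decorin, was found in all 17 fibroblast-like cells at 4901 CPM (4297 to 5566), in 3 endothelial-like cells at 24.4 CPM and in luminal cells at 7.77 CPM. Lum, the proteoglycan lumican, was found in 13 fibroblast-like cells and in no endothelial-like cell. Eln, elastin, and Fbn1, the microfibril protein fibrillin 1, were higher in fibroblast-like cells as well, with 64 and 54 UMIs there against 18 and 4 in endothelial-like cells. Fbln5, which helps to assemble elastic fibres, leaned the other way with 22 UMIs in 17 endothelial-like cells and 3 in fibroblast-like cells.

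Enzymes of collagen maturation were also found. All 6 genes of collagen processing with enough UMIs were higher in cluster 12 than in luminal cells, against 12.5% of all genes tested. Between the 2 kinds of cell, which were assigned with collagen genes, 68 of 1179 genes (5.77%) were higher in fibroblast-like cells. All 6 collagen processing genes were among these 68. They were Serpinh1, the collagen chaperone HSP47, with 177 UMIs in fibroblast-like cells, Pcolce and Pcolce2, which enhance propeptide removal, Bmp1 and Adamts2, which cut propeptides, and Loxl1, which cross-links elastin. Among matrix proteases and their inhibitors 6 of 7 genes were higher than in luminal cells, against 12.5% of all genes tested. Most UMIs belonged to Timp2 with 188, Timp3 with 94 and Adamts1 with 74. Adamts1, a protease that cleaves versican, had 54 UMIs in endothelial-like and 18 in fibroblast-like cells, of 123128 and 48361 UMIs in all. In that order it stood at 380 and 511 CPM in WT and at 533 and 218 CPM in V943R. Neither kind of cell led in both genotypes. Of the basement membrane list 5 of 6 were higher than in luminal cells, against the same 12.5%. Sparc, a collagen-binding matrix protein, was found in all 17 fibroblast-like cells at 9987 CPM and in 28 endothelial-like cells at 722.8 CPM, with 1.44 CPM in luminal cells.

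Genes of adventitial fibroblasts, which sit around vessels and in fascia, were prominent in the 17 cells. Pi16, a peptidase inhibitor that marks these fibroblasts, was found in 16 of the 17, Anxa3 in 15, Cd248 in 14, Ly6c1 and Ugdh in 13 and Cd34 in 12. At least 3 of the 8 adventitial genes were present in 16 of the 17 cells. The list stood at 8809 CPM in fibroblast-like cells, 113.7 in endothelial-like cells, 201 in clusters 1 to 11 and 357.8 in cluster 13. Of its 6 genes with enough UMIs, 5 were higher in cluster 12 than in luminal cells, against 12.5% of all genes tested. Dpp4 was found in 2 cells and Sema3c in 4. Pi16 stood at 4349.9 CPM in WT A, 3812 in WT B, 1308 in V943R A and 3272 in V943R B and at 0 in the endothelial-like cells of every library. Mesenchymal transcription factors were thinly sampled gene by gene, with Prrx1 in 8 fibroblast-like cells, Twist1 and Twist2 in 2 each, and Tcf21 and Foxf1 in none (up to 17.6% of the cells). At least 1 gene of their list was found in 16 of the 17 cells and 3 or more in 10. Of the 55 endothelial-like cells, 54 had at least 1 and 21 had 3 or more. The list stood at 1737 CPM in fibroblast-like cells, 1681 CPM in endothelial-like cells and 398.8 CPM in clusters 1 to 11. In cluster 12 as a whole, 2 of its 4 genes with enough UMIs were higher than in luminal cells, against 12.5% of all genes tested.

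**Figure D2:**
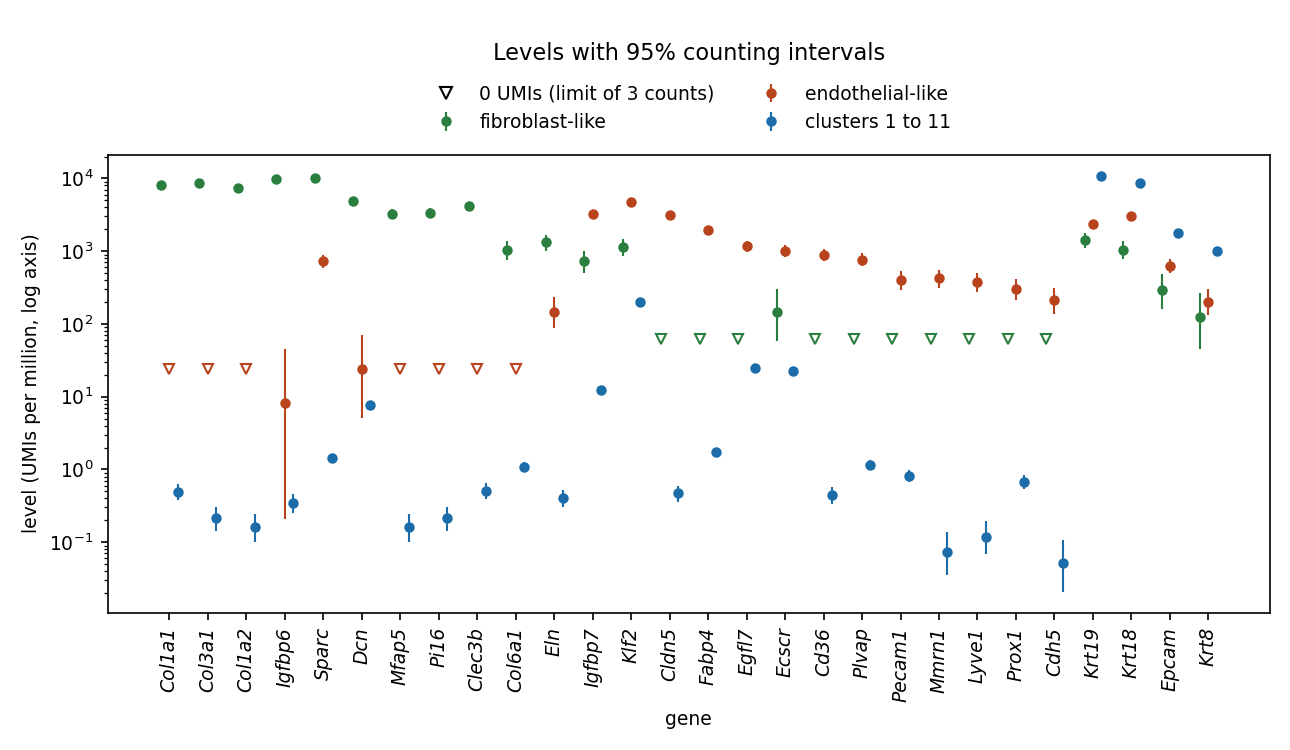
Level of 28 genes in CPM on a log axis in endothelial-like cells, fibroblast-like cells and clusters 1 to 11, with exact Poisson 95% intervals as bars and open triangles at the limit that 0 UMIs allow. Col1a1, Col3a1 and Col1a2 have no UMI in endothelial-like cells and Cldn5 has none in fibroblast-like cells, while Sparc, Igfbp7 and Klf2 are present in both kinds.

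Cldn5, on the list that assigned the cells, was found in most endothelial-like cells. It was found in 51 of the 55 cells with 387 UMIs, a median of 7 and at most 18 per cell, and in none of the 17 fibroblast-like cells, where 0 UMIs allow 62.0 CPM. Its level in endothelial-like cells was 3216 CPM in WT A, 1893 in WT B, 4393 in V943R A and 4305 in V943R B. Both V943R libraries were above both WT libraries, with a log2 ratio of 0.86 (0.56 to 1.15). Of the 9 endothelial-like cells rich in luminal RNA described further on, 4 were in WT A, 4 in WT B, none in V943R A and 1 in V943R B. Without those 9 cells Cldn5 stood at 6067 CPM in WT A, 3107 in WT B, 4393 in V943R A and 4899 in V943R B. WT A was then the highest library, the genotypes overlapped, and the log2 ratio was 0.14 (-0.18 to 0.46). As a share of cells, Cldn5 was found in 92.7% of endothelial-like cells (87.3% after thinning), in 0.130% of clusters 1 to 11 (0.0470% after thinning) and in none of the 164 cells of cluster 13 (up to 1.83%).

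Other genes of the endothelial junction and surface were present in fewer cells. All 8 endothelial list genes with enough UMIs were higher in cluster 12 than in luminal cells. The rule fixed this in advance for genes so scarce in luminal cells, and 12.5% of all genes tested were higher. Egfl7, a secreted endothelial matrix protein, was found in 49 of the 55 cells at 1169.5 CPM (986.3 to 1377), against 25.04 CPM and 9.23% of cells in clusters 1 to 11 (2.36% after thinning). Ecscr, an endothelial surface sialomucin, was found in 48 at 1015 CPM, and in 7.75% of luminal cells (2.16% after thinning). These luminal shares mark how often both genes turn up in cells of another kind, and after thinning the shares in endothelial-like cells were 74.5% and 65.5%. Plvap, which forms the diaphragms of fenestrated vessels, was found in 36 cells, Cdh5, VE-cadherin, in 20, Tie1 in 17 and the VEGF receptor gene Kdr in 14.

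Pecam1, whose product CD31 was among the antibodies of that flow cytometry, was found in 30 of the 55 endothelial-like cells. Its level by library was 308 CPM in WT A, 425 in WT B, 705 in V943R A and 132 in V943R B. The libraries of the genotypes overlapped. Pecam1 was listed in 0.339% of the cells of clusters 1 to 11 (0.0878% after thinning) and in no fibroblast-like cell. The most UMIs of Pecam1 in 1 cell were 3.

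Lymphatic genes were found in most endothelial-like cells. Of the 55, 39 (70.9%) had a UMI of at least 1 of Prox1, Mmrn1, Lyve1, Reln and Flt4, 20 had 2 or more, and 37 had Prox1 or Mmrn1. After thinning the first share was 54.5%. The same 5 genes were found in none of the 17 fibroblast-like cells, in 0.345% of clusters 1 to 11 (0.0815% after thinning) and in 1 of the 164 cells of cluster 13. The full lymphatic list of 8 genes, which adds Pdpn, Fgl2 and Ccl21a, had 22 UMIs in 8 of the 17 fibroblast-like cells. By library, 9 of 12, 13 of 17, 9 of 14 and 6 of 12 endothelial-like cells had Prox1 or Mmrn1, in the order WT A, WT B, V943R A and V943R B. All 5 lymphatic genes with enough UMIs were higher in the cluster than in luminal cells. The rule fixed this in advance for genes so scarce in luminal cells, and 12.5% of all genes tested were higher. The 5 genes were Prox1, Mmrn1, Lyve1, Pdpn (podoplanin) and Fgl2.

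Mmrn1, a multimerin of lymphatic vessels, stood at 582 CPM in WT A, 404 in WT B, 249 in V943R A and 439 in V943R B. Prox1 stood at 274, 362, 249 and 264 CPM. The libraries of the genotypes overlapped for Mmrn1, and for Prox1 both V943R libraries were just below both WT libraries. The log2 ratios, V943R over WT, were -0.47 (-1.42 to 0.42) and -0.36 (-1.49 to 0.69) within endothelial-like cells. Without the 9 cells rich in luminal RNA, Prox1 stood at 614, 561, 249 and 184 CPM, from 8, 13, 6 and 3 UMIs, and the log2 ratios were -0.58 (-1.65 to 0.46) for Mmrn1 and -1.38 (-2.69 to -0.20) for Prox1. Lyve1, a hyaluronan receptor of lymphatic capillaries, stood at 890 CPM in WT A, 213 in WT B, 166 in V943R A and 264 in V943R B, and most of the WT level came from WT A. Ccl21a, a chemokine of lymphatic endothelium with near-identical copies in the genome, had no UMI in any cell of the table, and its reads could have been lost among the copies.

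Endothelial-like cells with and without Lyve1 differed in other genes. Lyve1 was found in 11 endothelial-like cells, 5 in WT A, 3 in WT B, 1 in V943R A and 2 in V943R B, with a median depth of 1504 UMIs. The other 44 had a median of 1649.5 UMIs. This division and the genes set against it were chosen after their values were seen. Among the 11 cells, Mmrn1 was found in 10, the secreted glycoprotein gene Reln in 8 and Fgl2 in 11. Among the 44 cells the same genes were found in 16, 1 and 10. Stmn2, a tubulin-binding protein, was found in 7 of 11 against 3 of 44 cells.

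Other genes ran the opposite way. Ackr4, a scavenging receptor for CCL21 and CCL19, was found in none of the 11 cells with Lyve1 and in 27 of the 44 without it. Stab2, a scavenger receptor for hyaluronan, was found in 0 of 11 and 18 of 44, and Plvap in 2 of 11 and 34 of 44. Fabp4, a fatty acid carrier, was found in 0 of 11 and 33 of 44, and Cd36, a fatty acid uptake receptor, in 1 of 11 and 32 of 44. By library, Cd36 or Fabp4 was found in 4 of 12 endothelial-like cells of WT A, 14 of 17 of WT B, 11 of 14 of V943R A and 9 of 12 of V943R B. Prox1 occurred on both sides, in 3 of 11 and 18 of 44 cells. Fgl2 stood at 3052 CPM in cells with Lyve1 and 240.9 CPM in cells without, and Igfbp7, a matrix protein that binds growth factors, at 362 and 3738 CPM.

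**Figure D3:**
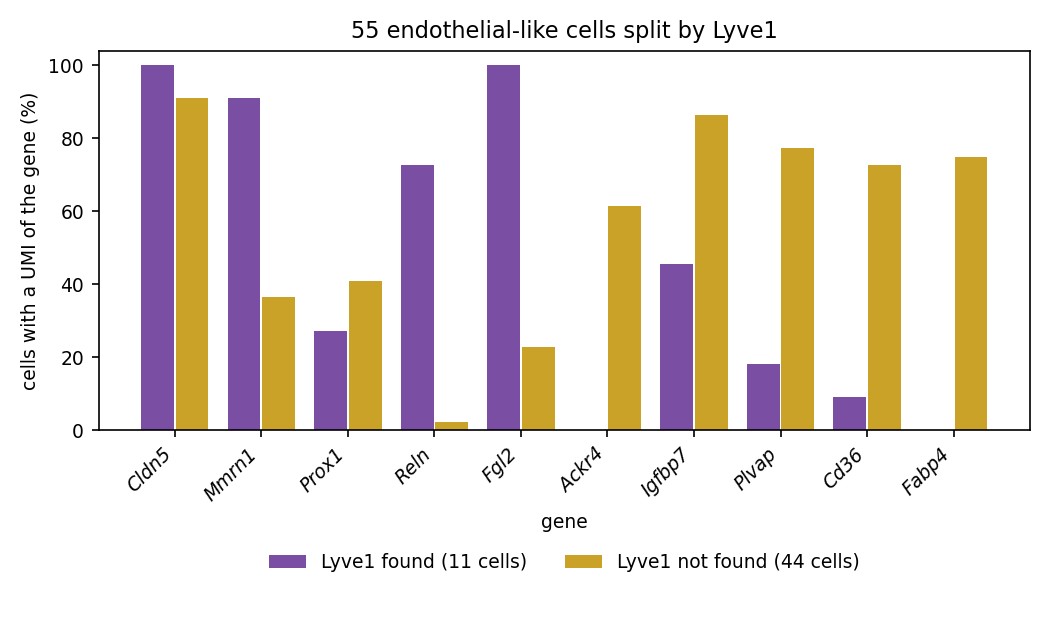
Percent of endothelial-like cells with a UMI of each gene, for the 11 cells in which Lyve1 was found and the 44 in which it was not, all libraries together. Reln, Fgl2 and Mmrn1 were found more often beside Lyve1, and Ackr4, Fabp4, Cd36, Plvap and Igfbp7 more often without it.

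Genes listed for blood vessels varied from rare to common. Flt1, the VEGF receptor of blood endothelium, and Vwf, von Willebrand factor, were found in 3 endothelial-like cells each and in 4 together, and Selp, Sele or Ackr1 of venules in 4. At least 1 gene of the capillary list was found in 46 of the 55 endothelial-like cells, of the venous list in 50, of the arterial list in 29 and of the lymphatic list in 44. After thinning the shares were 70.9%, 80.0%, 30.9% and 61.8%, against 0.470%, 10.8%, 5.80% and 0.244% of clusters 1 to 11. Many cells therefore held genes of more than 1 of these lists, so a gene of 1 list does not by itself name the kind of vessel. In fibroblast-like cells at least 1 lymphatic list gene was found in 8 of 17 cells, and genes of the capillary, venous and arterial lists in 1, 1 and 0. The arterial gene Gja5 and the capillary gene Car4 had no UMI. Of the arterial list no gene had enough UMIs for a call. Of the capillary list 3 of 3 were higher than in luminal cells. The rule fixed this in advance for genes so scarce in luminal cells, and 12.5% of all genes tested were higher. The 3 capillary genes were Fabp4, Cd36 and Gpihbp1, which tethers lipoprotein lipase. Gpihbp1 was found in 7 of the 11 cells with Lyve1 and in 6 of the 44 without it. Of the venous list 3 of 3 were higher, Nr2f2, Vcam1 and Lrg1, against the same 12.5% of all genes tested. Nr2f2 encodes COUP-TFII, a factor shared by veins and lymphatics.

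The 4 endothelial-like cells without Cldn5 held all 6 UMIs of Vwf and all 9 of Ackr1 found in endothelial-like cells. In 3 of them, all in WT B, Aqp1, a water channel of blood endothelium, had 7, 9 and 12 UMIs and Fabp4 had 20, 10 and 21. Each of the 3 had Vwf, and none had Prox1, Mmrn1 or Lyve1. The remaining cell without Cldn5, in V943R A, had 4 UMIs of Fabp4, 1 of Plvap and 1 of Pecam1 and, at 1008 UMIs, was 1 of the 2 shallowest cells of the cluster.

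**Figure D4:**
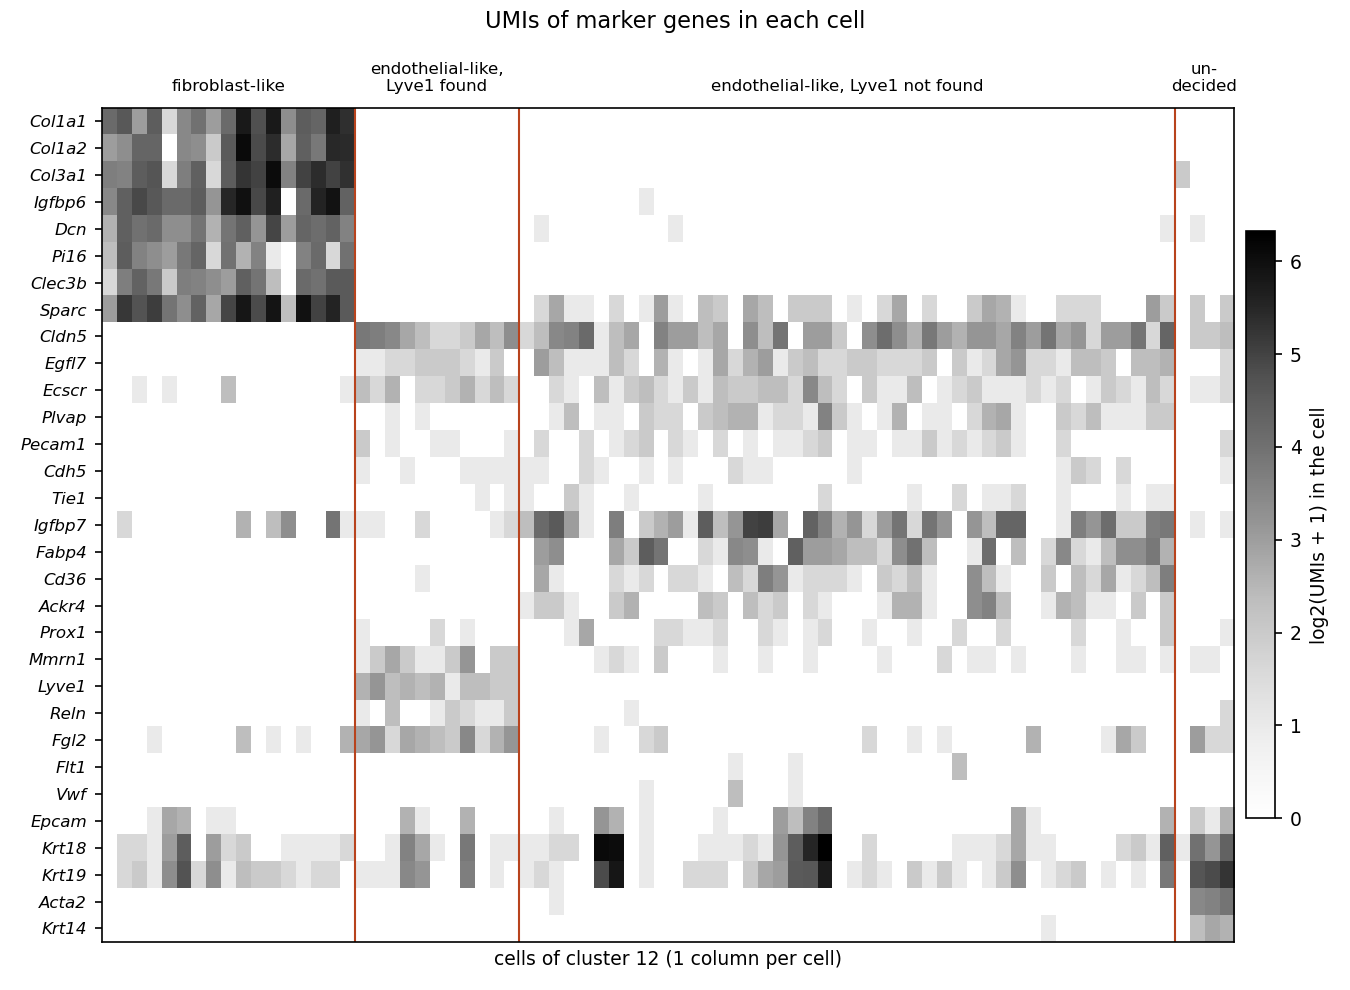
UMIs of 31 genes (rows) in the 76 cells of cluster 12 (columns), colored by log2(UMIs + 1), with cells ordered as fibroblast-like, endothelial-like with Lyve1, endothelial-like without Lyve1 and unassigned. Collagen genes fill the first block of 17 cells and Cldn5 the next 2 blocks of 11 and 44, Reln lies mostly in the block with Lyve1, and Fabp4, Cd36 and Ackr4 in the block without it.

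The transcriptional regulators of endothelium were led by Klf2, which is induced by flow. It stood at 4799.9 CPM in endothelial-like, 1137 CPM in fibroblast-like and 197.8 CPM in luminal cells. By library its level in endothelial-like cells was 2532 CPM in WT A, 4318 in WT B, 6466 in V943R A and 6940.2 in V943R B, so the V943R libraries were above the WT ones. The log2 ratio was 0.88 (0.64 to 1.12), short of 2-fold. Without the 9 cells rich in luminal RNA the levels were 3532, 6646, 6466 and 7287 CPM, so the genotypes overlapped, and the log2 ratio was 0.30 (0.03 to 0.57). Fli1 was found in 24 endothelial-like cells, Sox18 in 16 and Erg in 9. Of the 5 endothelial factors with enough UMIs, Klf2, Fli1 and Sox18 were higher than in luminal cells, against 12.5% of all genes tested. Meox1, a homeobox gene on the list of fibroblast factors, was found in 26 endothelial-like and no fibroblast-like cells.

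Set directly against each other, the 2 kinds of cell differed at many further genes. Outside the 12 genes of each list, 143 of 1179 genes were higher in endothelial-like cells (12.1%) and 68 in fibroblast-like cells (5.77%), at 4-fold or more on the summed UMIs of all libraries and in the same direction, at any size, within each library. With 3 counts allowed where a gene had fewer in the other kind of cell, 64 of the 143 fell short of 4-fold and none of the 68 did. The endothelial side was led by Fabp4, Fxyd6, a regulator of the sodium pump, Lrg1, a secreted glycoprotein of vessels, Cavin2, a coat protein of caveolae, and Apold1, an early response gene of endothelium. Fabp4 was at least 31.0-fold higher in endothelial-like cells, since it had 237 UMIs there and 0 in fibroblast-like cells. Fxyd6 had 204 UMIs against 3. The fibroblast side was led by Clec3b (tetranectin), Pi16, the long noncoding RNA Meg3, Anxa3 and the actin-severing gelsolin gene Gsn. Clec3b was at least 171-fold and Meg3 at least 105-fold higher in fibroblast-like cells. Gsn stood at 14516 CPM in fibroblast-like cells, 219 CPM in endothelial-like cells and 709.8 CPM in luminal cells, so it was lowest in endothelium.

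Of 12 genes of stromal ligands, which signal between stroma and epithelium, 8 were found in cluster 12 and 3 had enough UMIs for a call. At least 1 ligand was found in 13 of the 17 fibroblast-like and 40 of the 55 endothelial-like cells. In 10 and 16 of these cells 2 or more ligands were found. The list stood at 724 CPM in fibroblast-like cells, 674 CPM in endothelial-like cells and 382 CPM in clusters 1 to 11. The other 4 genes, Hgf, Fgf7, Fgf10 and Nrg1, had no UMI, which allows up to 62.0 CPM in fibroblast-like cells. Nrg1 encodes neuregulin 1, the ligand of ERBB3. Wnt2 was found in 7 fibroblast-like cells with 10 UMIs, and Igf1 in 5 with 8 UMIs. Of 3 ligands with enough UMIs 1 was higher and 1 lower than in luminal cells, against 12.5% and 2.7% of all genes tested. The higher one was Pdgfa, a growth factor for fibroblasts and pericytes, with 30 UMIs, all in 20 endothelial-like cells. Its receptor gene Pdgfra had 9 UMIs, all in 7 fibroblast-like cells, and Pdgfrb 4 UMIs in 2. Of the 4 receptors with enough UMIs, Kdr and Eng (endoglin) were higher than in luminal cells, against 12.5% of all genes tested.

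Igfbp6 and its relatives divided the cluster. Igfbp6 stood at 7763 CPM in WT A, 12772 in WT B, 8394 in V943R A and 10252 in V943R B in fibroblast-like cells and had 1 UMI in endothelial-like cells. The genotypes overlapped. Igfbp7 ran the other way, with 3208 CPM in endothelial-like and 723.7 CPM in fibroblast-like cells, against 12.5 CPM in luminal cells. Igfbp4 was in both, with 38 of the 123128 UMIs of endothelial-like and 35 of the 48361 of fibroblast-like cells, so its level was higher in the latter. Igf1r had 8 UMIs in all and Igf2 none.

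The ErbB family was thin in cluster 12. Erbb3 had 6 UMIs in 4 cells, Erbb2 4 UMIs in 4 cells and Erbb4 none. Egfr had 5 UMIs, all in 3 fibroblast-like cells of the V943R libraries, which put cluster 12 above luminal cells at a log2 ratio of 3.29 (1.66 to 4.53). Of the ligands, Areg (amphiregulin) had 125 UMIs and was lower than in luminal cells at -2.33 (-2.59 to -2.07). Its UMIs were 113 in WT and 12 in V943R cells, and 46 of them lay in 2 endothelial-like cells of WT B. Areg was among the 94 genes counted as lower in V943R. Tgfa had 12 UMIs, all in 10 endothelial-like cells, Hbegf 9, Btc 5 and Nrg4 1, while Nrg2 and Ereg had none. Of the Erbb3 UMIs, 5 were in WT and 1 in V943R cells, and counts per gene do not tell the V943R allele from the WT one.

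Luminal RNA was present in the cluster at a low level. Epcam, the surface protein of the sort, was found in 27.3% of endothelial-like cells (16.4% after thinning), 29.4% of fibroblast-like cells (23.5%), 40.2% of cluster 13 (31.3%) and 98.3% of luminal cells (81.3%). Krt18, a luminal keratin, was found in 63.6%, 76.5%, 58.5% and 99.9%. Both kinds of cell had a lower share than cluster 13 for Epcam and a higher one for Krt18, without a test of either difference. The 12 luminal genes made up 0.252% of the UMIs of the median cell in cluster 12, 0.276% in cluster 13 and 2.69% in clusters 1 to 11. Of the 11 luminal genes with enough UMIs, Krt8, Krt7 and Krt19 counted as lower in cluster 12 at 4-fold, against 2.7% of all genes tested. Of the lists of luminal subtypes, Ltf (lactoferrin) of progenitors and Prlr, Cited1 and Areg of mature cells were lower. The genes furthest below luminal cells were Igsf5, Pcp4 and Crym, at log2 ratios of -5.49, -4.79 and -4.29 from 3, 6 and 3 UMIs in cluster 12.

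A subset of cells held more luminal RNA. In 14 cells 8 or more of the 12 luminal genes were found, a number chosen after the data were seen. Of these 9 were endothelial-like, 2 fibroblast-like and 3 unassigned. They had a median of 3516.5 UMIs against 1628.5 in the other 62 cells, and a median luminal share of 1.73% against 0.227%. By library there were 6 in WT A, 7 in WT B, none in V943R A and 1 in V943R B, so 13 of the 14 were WT.

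**Figure D5:**
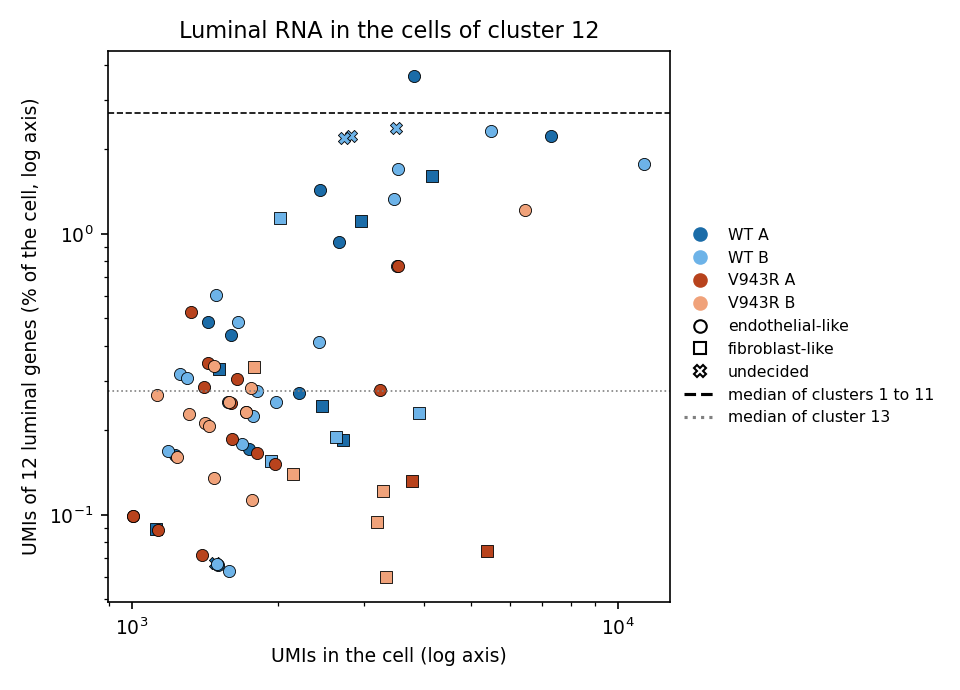
Share of each cluster 12 cell's UMIs that belong to 12 luminal genes (percent) against its total UMIs, by library and kind of cell, with dashed lines at the medians of clusters 1 to 11 (2.69%) and cluster 13 (0.276%). Most cells lie near the line of cluster 13, and those near the luminal line come largely from the WT libraries.

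Genotypes were compared within the cluster on summed UMIs, 112212 of 43 WT cells and 69820 of 33 V943R cells. The 14 cells with 8 or more luminal genes gave 51.1% of these UMIs in WT A and 49.4% in WT B. In V943R A they gave 0% and in V943R B 17.6%. A gene was counted at 2-fold or more with 20 or more UMIs and both libraries of one genotype beyond both of the other. Of 1020 genes, 51 were higher in V943R (5.0%) and 94 were lower (9.22%). The largest falls were Gata3, a luminal transcription factor, the prolactin receptor gene Prlr, Tagln, Slc12a2, an ion cotransporter of secretory epithelium, and the luminal surface gene Ly6d. Gata3 had 25, 25, 0 and 3 UMIs in WT A, WT B, V943R A and V943R B, and Ly6d 92, 223, 7 and 15. The 14 cells with 8 or more luminal genes held 90.6% of the Gata3, 86.6% of the Prlr, 76.6% of the Tagln, 89.2% of the Slc12a2 and 88.4% of the Ly6d UMIs.

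Without those 14 cells, none of these 5 genes counted. The cells were picked for luminal genes, so a loss of luminal genes such as Gata3, Prlr and Ly6d follows in part from that choice. Prlr had 5 WT and 4 V943R UMIs left and Slc12a2 3 and 4, so the minimum of 20 UMIs kept both from counting at any ratio. Ly6d had 21 and 18 UMIs left. The intervals of the log2 ratio of Prlr, Slc12a2 and Ly6d held both a fall and a rise. Tagln had 11 WT and 0 V943R UMIs left and Gata3 5 and 0, under the minimum of 20 UMIs, with upper 95% limits of the log2 ratio of -1.51 and -0.05. Of all genes, 20 of 554 genes were higher (3.61%) and 18 lower (3.25%) in V943R. Of the 51 genes higher and 94 lower in V943R, 11 and 8 still counted. The 5 genes with the largest rises were among the 11. Oaf, a secreted protein, had 2, 3, 13 and 9 UMIs by library and a log2 ratio of 2.82 (1.39 to 4.58), and 2.28 (0.72 to 4.28) without the 14 cells. Ptpre, a tyrosine phosphatase found in endothelial-like but not in fibroblast-like cells, had 2, 7, 15 and 9 UMIs and 2.02 (0.60 to 3.77) without them. Ccdc80, a matrix protein, had 2, 13, 17 and 22 UMIs and a log2 ratio of 2.06 (1.17 to 3.03), and 1.20 (0.31 to 2.16) without them. Irf7, an interferon regulator, had 5, 3, 13 and 7 UMIs. Gja1 (connexin 43) had 3, 7, 9 and 15 UMIs. In each of these genes both V943R libraries were above both WT libraries.

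Fibroblast-like cells gave 32.7% of the UMIs of the cluster in WT A, 15.8% in WT B, 27.5% in V943R A and 37.7% in V943R B. The genotypes overlapped, with WT B apart from the rest, and pooled the shares were 22.7% in WT and 32.8% in V943R. The part of these shares in the ratios was not tested. Within fibroblast-like cells Oaf stood at a log2 ratio of 2.74 (0.96 to 5.14), Irf7 at 2.32 (0.72 to 4.34) and Ccdc80 at 1.41 (0.51 to 2.39), from 10 WT and 7 V943R cells. Without the 2 of these cells rich in luminal RNA the values were 2.26 (0.48 to 4.67) for Oaf and for Irf7 and 0.94 (0.03 to 1.91), short of 2-fold, for Ccdc80. Within endothelial-like cells Ptpre stood at 2.12 (0.96 to 3.41) and Gja1 at 1.59 (0.16 to 3.16). Without the cells rich in luminal RNA, V943R A was below WT A for Gja1 in endothelial-like cells and the log2 ratio was 1.22 (-0.36 to 3.06). Irf7 had 2 V943R and 4 WT UMIs in endothelial-like cells, too few to compare with fibroblast-like cells. With 1 pool per genotype, genotype and pool cannot be told apart in any of these values.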

How the data were processed

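Single cells of luminal sorts were sequenced with the Chromium 3' chemistry. Per the submitters' processing notes, CASAVA 1.8, bcl2fastq 2.20, GSNAP and GRCm38 were used, and clusters came from Partek Flow at a Seurat setting of 0.6. Filters on cells are not given in the sources used here. The authors deposited 1 signal per gene and cell, scaled within each cell. Dividing every signal by the lowest nonzero signal in the same cell gave values of which 100% lay within 0.02 of a whole number (UMIs). Beyond the counting intervals given below, no count model was fitted. All cells and columns were used. Cells of cluster 12 held 33301 to 66561 UMIs per library.

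The 95% intervals of levels were exact Poisson ones. Ratios of levels had exact conditional binomial intervals, shares had Clopper-Pearson ones, and share ratios log-normal ones. A count of 0 was taken to allow 3 counts. Thinning used seed 1 and left out 293 luminal cells and 4 of cluster 13 under 1000 UMIs. Genes at least 4-fold lower were those with 20 or more UMIs expected from clusters 1 to 11.

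The 29 gene lists and the members were chosen with earlier results of these data known. Named by rule were the 4 markers, up to 4 genes per list with the most UMIs, list genes at 0 that define a class, the 10 genes highest over luminal cells, 5 genes in each direction between kinds of cell and between genotypes, the ErbB genes, Epcam, Krt8 and Krt18. Other genes named, such as Ackr4, Stab2, Stmn2, Aqp1 and list genes of lower count, were chosen after their values were seen. Alternatives were other thresholds, minimums, scalings, reference clusters, thinning, means over cells and each library left out, and, chosen after seeing the data, leaving out cells with 8 or more luminal genes. The rules were tested on simulated data. Positions were taken from GENCODE by gene ID (334 of 335 found) and promoters from RefSeq. Python 3.11.15, numpy 2.4.6, scipy 1.17.1, pandas 2.3.3 and matplotlib 3.10.9 were used.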

Additional observations from a re-analysis of the deposited data

How the results depend on the processing

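The assignment of cells kept its counts within 1.5 times under each alternative run. The ratio of cluster shares stayed between 0.898 and 1.21 with each library left out. Over all alternatives the log2 ratio of Cldn5 over luminal cells ranged from 11.03 to 12.99, of Igfbp6 from 11.85 to 13.51, of Col3a1 from 12.48 to 13.93 and of Col1a2 from 12.72 to 14.12. Genes higher than in luminal cells numbered 432 at 2-fold, 491 at 10 UMIs and 97 at 50 UMIs, and 176 to 208 with each library left out. Genes lower numbered 240 at 2-fold, 9 at 8-fold, 120 at 10 UMIs, 28 at 50 UMIs, 109 against luminal progenitor clusters 1 and 2, 120 as means over cells and 118 without the cells with 8 or more luminal genes. With each library left out they numbered 29 to 68 (35 without V943R A, 29 without V943R B). Genes higher in endothelial-like cells numbered 327 at 10 UMIs, 249 at 2-fold and 86 to 135 with each library left out (86 without WT B), and those higher in fibroblast-like cells 114 at 10 UMIs and 46 to 54. Genes higher in V943R numbered 175 at 10 UMIs, 30 in endothelial-like and 9 in fibroblast-like cells alone, 20 without the cells rich in luminal genes, and 20 to 67 with each library left out (27 without V943R A, 20 without V943R B). Genes lower in V943R numbered 292, 23 in fibroblast-like cells alone, 18 and 39 to 157 (39 without WT B, 157 without V943R B). The cause of the shifts was not tested. No paired analysis was possible because the libraries in the table carry no replicate number and no test was made. The depth, a median of 1612 UMIs per endothelial-like cell, limits what absence of a gene can show.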

Other observations

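Genes induced by dissociation were found in nearly every cell of cluster 12. Fos was found in 54 of 55 endothelial-like and all 17 fibroblast-like cells, at 8519.6 and 4053 CPM against 6649 CPM in clusters 1 to 11. Of 11 such genes with enough UMIs none was 4-fold higher or lower than in luminal cells, against 12.5% and 2.7% of all genes tested. Genes of proliferation were sparse, with 32 UMIs over 11 of the 12 genes, or 176 CPM against 723 CPM in clusters 1 to 11. Of the endothelial-like cells 16 had at least 1 of these genes and 2 had 3 or more. Among them, 1 cell of V943R A had 7. Mki67 was the 1 gene of the list with no UMI in the cluster (up to 16.5 CPM), against 30.0 CPM in luminal cells. Ube2c was the 1 gene of the list with enough expected UMIs, and it was lower.

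Ccl7, chosen after its values were seen, had 77 UMIs in 6 cells of cluster 12, of which 65 UMIs were in 1 endothelial-like cell of WT B, 1 UMI in another and 11 in 4 fibroblast-like cells, against 0.27 CPM in clusters 1 to 11.

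Of the claudin and junction list, Cldn5 and Cdh5 were higher than in luminal cells. Cldn11, a claudin of oligodendrocytes and Sertoli cells that was chosen after its values were seen, had 23 UMIs, all in 13 endothelial-like cells, while the epithelial claudins Cldn3, Cldn4 and Cldn7 lay below luminal cells at log2 ratios of -1.63, -1.36 and -1.93. Nts, the precursor gene of neurotensin, had 80 UMIs in 14 endothelial-like cells, 12 of them without Lyve1, and none in fibroblast-like cells.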
